A study of Mus musculus with 4 samples.

Results

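The peaks of mmu-miR-22-3p were examined in chimeric eCLIP-seq libraries of mouse plantaris muscle. They were all lines of the deposited peak lists that name this miRNA. There were 4412 such peaks among 194365 peaks of all miRNAs, with 2062 in the control library and 2350 in the mimic library. A peak here is 1 stretch of a transcript bound by Ago2 together with 1 miRNA ligated to it, and its value is the estimated number of chimeric reads.

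Both libraries came from the plantaris of male C57BL/6J mice, 5 months old, after 10 days of mechanical overload (MOV), in which part of the synergist muscles is removed so that the plantaris grows. The MOV control group received a control lentivirus and the MOV mimic group a lentivirus that expresses a miR-1 mimic under the CMV promoter, a promoter that is not limited to muscle fibres. The control virus went into the left plantaris and the mimic virus into the right one, so side and virus cannot be told apart. The series holds 4 samples in 4 groups, and the 2 input samples were not analysed here. Each group had 1 library, so every difference below is a difference between libraries with no replicate check, and no p-value between the groups could be given.

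miR-22-3p is a miRNA made from the exon of a non-coding host gene, Mir22hg, and it is abundant in heart and skeletal muscle. Like other miRNAs it is loaded into Ago2 and pairs with transcripts mainly through its seed, the bases near its 5′ end, which leads to reduced translation or decay of the transcript. In muscle it is known for a part in hypertrophy, contractile protein expression and metabolism, with described targets among chromatin regulators and signalling genes.

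The sequences of both arms of the hairpin, taken from RefSeq for GRCm38.p6, are shown because the seed, in capitals, is the part searched for in the target transcripts below. The 3p arm lies at chr11:75463772-75463793 on the plus strand and the 5p arm at chr11:75463734-75463755.
mmu-miR-22-3p: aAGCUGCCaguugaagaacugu
mmu-miR-22-5p: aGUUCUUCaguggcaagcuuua

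Of 1679 mature mouse miRNA names in the RefSeq table, 0 others shared bases 2 to 8 of miR-22-3p. Peaks of miR-22-3p were therefore not pooled with those of a seed family.

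miR-22-3p ranked 10 by number of peaks among 560 miRNAs in control muscle and 9 in mimic muscle. Its peaks made up 2.21% of all peaks in control muscle (95% Clopper-Pearson interval 2.11 to 2.30%) and 2.33% in mimic muscle (2.24 to 2.42%). The intervals overlapped. All intervals in this text are 95% intervals within these libraries, without the variation from animal to animal or from one preparation to the next. Those of reads and their ratios treat rounded values as plain counts. Those of shares and medians treat single reads, peaks or genes as separate draws, and these are not replicates of a group.

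The miR-22-3p reads summed to 5138 in control muscle (exact Poisson interval 4998 to 5280) and 6095 in mimic muscle (5943 to 6250). The mimic library thus held 1.19 times as many (1.14 to 1.23), beside a ratio of 1.12 for all chimeric reads and 1.11 (1.11 to 1.12) for all other miRNAs. Of the 147 other miRNAs that had 50 or more peaks in both libraries, 31 had a higher ratio and 116 a lower one, and their median was 1.05. The miR-22-3p ratio was outside the counting error of the other miRNAs as a whole and inside the spread from miRNA to miRNA, whose 5th and 95th percentiles were 0.764 and 1.46. The summed length of the peaks was 133871 nt and 157813 nt, and the mean peak held 2.49 and 2.59 reads. For comparison, the miRNAs with the nearest number of peaks had ratios of 1.01 (let-7c-5p), 1.15 (miR-24-3p) and 1.04 (miR-23a-3p), and miR-1a-3p, the miRNA of the mimic, had 1.31.

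Most miR-22-3p peaks were shallow. The median value per peak was 0.850 in control muscle and 0.921 in mimic muscle, and 57.3% and 53.9% of the peaks held under 1 read. Peaks of at least 3 reads numbered 312 in control muscle and 332 in mimic muscle, 15.1% and 14.1% of its peaks, beside 11.6% and 11.4% for all miRNAs. These peaks held 72.1% and 71.0% of its reads. The 10 peaks with the most reads alone held 24.9% in control muscle and 24.7% in mimic muscle.

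The reads of miR-22-3p lay elsewhere than those of the libraries as a whole. The mitochondrial chromosome held 1.09% of its reads in either library, against 13.7% and 13.4% of all chimeric reads. The nuclear 18S ribosomal RNA gene Rn18s-rs5 went the other way, with 13.0% and 12.3% of the miR-22-3p reads against 6.71% and 6.41% of all reads. Titin, which takes many reads in muscle, held 5.02% and 5.96% of the miR-22-3p reads and 7.54% and 9.09% of all reads. In absolute terms Rn18s-rs5 had 666 miR-22-3p reads in control muscle and 750 in mimic muscle, the most of any gene, and it is left out of the account of target genes because ribosomal RNA is very abundant and repeated in the genome.

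Peaks fell on 1225 genes in control muscle and 1372 in mimic muscle. Of these, 678 genes had a peak in both libraries, 547 had one only in control muscle and 694 only in mimic muscle. With peaks of at least 3 reads, the same numbers were 157, 93 and 105. No such counts for other miRNAs are given here as a background. Most peaks were shallow, so genes named in only the control or only the mimic library are not read as specific to that library. Over both libraries 1919 genes were named, of which 1833 were protein-coding, 14 were lncRNA genes and 52 were pseudogenes. Of all 8021 genes with a peak of any miRNA, 23.9% had a miR-22-3p peak. That share went with depth, from 8.75% of 3760 genes with under 10 chimeric reads of all miRNAs in both libraries together to 31.6% of 3734 genes with 10 to under 100, 75.7% of 481 genes with 100 to under 1000 and all 46 genes with 1000 or more. A gene without a peak may have been missed at this depth, and it cannot be read as a gene without binding.

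**Figure D1:**
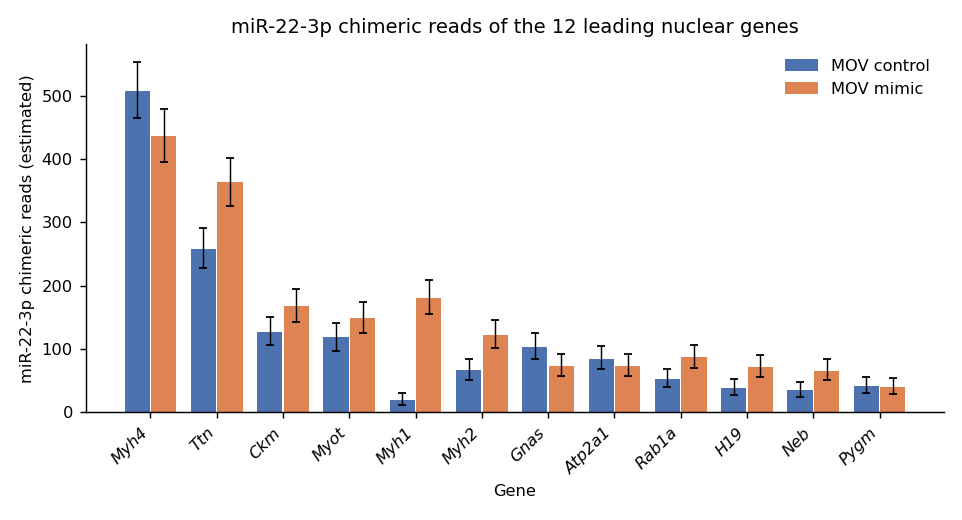
Bars give the miR-22-3p chimeric reads, summed over the peaks of each gene, in the MOV control (blue) and MOV mimic (orange) library, and whiskers the 95% Poisson interval, for the 12 genes with most reads outside the mitochondrial chromosome and Rn18s-rs5. Myh4 leads in both libraries with 508 and 436 reads, and the widest gap is that of Myh1, with 20.2 and 181 reads.

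Of the 12 genes with most miR-22-3p reads, 6 were sarcomere genes of the thick-filament list (Myh4, Myh1 and Myh2) or of the list for the thin filament and Z-disc (Ttn, Myot and Neb). Myh4, the myosin heavy chain of the fastest type IIB fibres, had 508 miR-22-3p reads in control muscle and 436 in mimic muscle. Ttn, the giant spring protein of the sarcomere, had 258 and 363. Ckm, the muscle creatine kinase that regenerates ATP, had 127 and 168.

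Behind them, Myot, a Z-disc protein that binds actinin and filamin, had 118 reads in control muscle and 148 in mimic muscle. Gnas, which encodes the stimulatory G protein alpha subunit, had 103 and 72.9. Atp2a1, the calcium pump of the fast-fibre sarcoplasmic reticulum, had 85.0 and 73.8. The miR-22-3p share of all chimeric reads of a gene set Myot and Gnas apart from the abundant sarcomeric genes, at 30.9% and 33.7% for Myot and 28.6% and 19.5% for Gnas, against 1.47% and 1.54% for Ttn.

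Rab1a, a small GTPase of traffic from the endoplasmic reticulum to the Golgi, had 53.5 reads in control muscle and 86.9 in mimic muscle, all in 1 peak. Neb, the thin-filament ruler nebulin, had 35.4 and 66.3. Pygm, the muscle glycogen phosphorylase, had 42.1 and 39.6. H19, an imprinted lncRNA, had 39.4 and 72.1, which was 0.861% and 1.28% of its chimeric reads of all miRNAs.

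These sums favour long transcripts. Per kilobase of the longest protein-coding transcript in the GENCODE annotation, which all of these but Rab1a and H19 had, Ckm led with 90.0 miR-22-3p reads in control muscle and 119 in mimic muscle. Myh4 followed with 84.4 and 72.5 reads per kilobase and Myot with 53.6 and 67.2. Ttn had 2.42 and 3.40 and Neb 1.57 and 2.95 reads per kilobase.

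The fast and intermediate myosin heavy chain genes Myh1, Myh2 and Myh4 differed between the libraries in different directions. Myh1, the type IIX chain, had 20.2 reads in control muscle and 181 in mimic muscle, and Myh2, the type IIA chain, had 66.3 and 122. Myh4 was lower in the mimic, at a ratio of 0.860 (0.753 to 0.977). The chimeric reads of all miRNAs moved in the same directions, with ratios of 1.78 for Myh1, 1.22 for Myh2 and 0.781 for Myh4, and the miR-22-3p share of the Myh4 reads was 9.88% in control muscle and 10.9% in mimic muscle. These genes are near-identical neighbours on chromosome 11, and reads that fit more than one of them may have been split between them in counting, so the values of the single genes are uncertain. Taken as 1 family they had 594 reads in control muscle and 739 in mimic muscle, a ratio of 1.24 (1.12 to 1.39) whose lower limit lay at the ratio of all chimeric reads, and the reads of all miRNAs on the family had a ratio of 1.32.

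The peaks behind those values were few. The Myh4 peak chr11:67254510-67254576 of the control held 292 miR-22-3p reads, and chr11:67254486-67254577 of the mimic held 319. At Myh1, the abutting peaks chr11:67217497-67217535 and chr11:67217536-67217567 held 35.0 and 86.5 reads in the mimic, where the control had 3.46 reads in chr11:67217501-67217514. In turn the Myh4 peak chr11:67250951-67250974 of the control held 46.3 reads, while the mimic library listed no miRNA there. At Myh2, the peak chr11:67191357-67191463 of the control held 57.6 reads, and chr11:67191349-67191464 of the mimic held 108.

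The 3 genes carry a complement of the miR-22-3p seed in a near-identical stretch of their coding sequence. The complement searched was GGCAGCT, which pairs with bases 2 to 8, on the transcript strand only. The sites are shown, from the longest protein-coding transcripts of the GENCODE vM1 annotation (NCBIM37), because they differ at few bases around the capitals, which mark the complement. They lie at transcript positions 4052 to 4058 of Myh4, 4117 to 4123 of Myh1 and 4096 to 4102 of Myh2, which held a second match at 4012 to 4018.
Myh4: acagattgaggaactaaagaGGCAGCTaga
Myh1: acagattgaggagctgaagaGGCAGCTtga
Myh2: acagattgaggagctaaagaGGCAGCTtga

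Whether the peaks of these genes cover that site was not determined, because the peaks are in GRCm38 coordinates and the transcripts come from another build. The same holds for all transcript sequences below.

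Because several miRNAs can be listed in 1 peak, the share of a peak's chimeric reads that belongs to miR-22-3p tells how far the peak is its own. The median miR-22-3p peak listed 5 miRNAs in both libraries, and 89 control peaks and 108 mimic peaks listed miR-22-3p alone. These were 4.32% and 4.60% of its peaks. The like share was 4.49% and 4.36% for miR-24-3p, 4.10% and 4.57% for miR-1a-3p, 1.56% and 1.19% for miR-23a-3p and 0.413% and 0.566% for let-7c-5p. The miRNA listed most often beside miR-22-3p was miR-133a-3p, in 51.6% of the control peaks of miR-22-3p and 51.4% of its mimic peaks. Next were miR-1a-3p with 36.7% and 38.1%, miR-133b-3p with 30.1% and 27.4%, miR-206-3p with 27.7% and 26.5% and miR-378a-3p with 24.5% and 26.8%. Over all peak intervals miR-133a-3p was listed in 35.6% and 37.5%, miR-1a-3p in 26.3% and 29.0% and miR-133b-3p in 17.0% and 16.3%. On the same base miR-206-3p was listed in 19.7% and 18.4%, and miR-378a-3p in 11.4% and 13.3%.

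Over all its peaks pooled, miR-22-3p held 4.95% of the chimeric reads in control muscle (4.82 to 5.08%) and 5.31% in mimic muscle (5.18 to 5.44%). Without the mitochondrial chromosome these values were 6.81% and 7.06%. The median share was 15.2% and 15.7%. In peaks with at least 3 miR-22-3p reads the median share was 59.2% in both libraries. The like values of other miRNAs in their own peaks were 53.2% and 58.0% (miR-24-3p) and 54.1% and 56.1% (miR-1a-3p). They were lower for miR-23a-3p, at 40.0% and 34.4%, and for let-7c-5p, at 21.7% and 20.8%.

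In those deeper peaks miR-22-3p was usually the leading miRNA, with more reads than any other, in 224 of 312 control peaks (71.8%) and 239 of 332 mimic peaks (71.99%). For miRNAs with a like number of peaks the share of led peaks was 65.6% and 67.4% (miR-24-3p), 62.4% and 54.5% (miR-23a-3p) and 51.5% and 44.6% (let-7c-5p). Among 47 other miRNAs with at least 50 peaks of this depth, the median was 34.5%, and 4 had a higher share than miR-22-3p. miR-1a-3p led 74.7% and 75.9% of its own. The differences between miRNAs were not tested over samples, since each library gives 1 value.

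**Figure D2:**
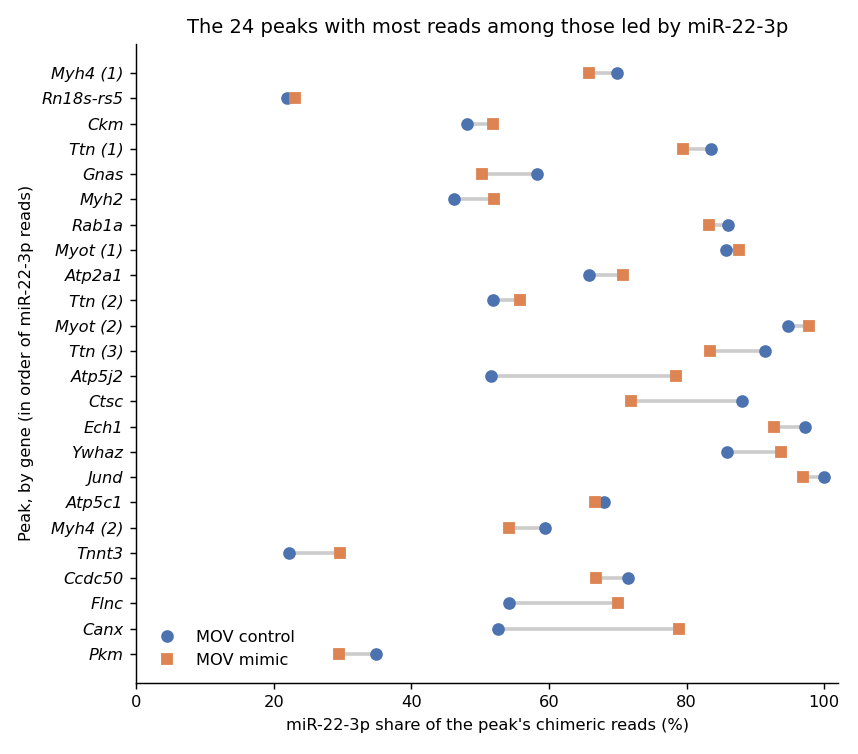
Points give the miR-22-3p share of all chimeric reads of a peak, in percent, in the MOV control (circles) and MOV mimic (squares) library, for the 24 peaks with most miR-22-3p reads among those it led in both libraries, named by gene. Ech1, Jund and the second Myot peak lie above 90% in both libraries, and Rn18s-rs5 lies near 20% although it has the second most reads.

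Shared peaks that miR-22-3p led in both libraries numbered 247, and 128 of them, on 121 genes, had at least 3 reads in each. The deepest of these outside Rn18s-rs5 were in Myh4, Ckm, Ttn, Gnas and Myh2. The Myh4 peak of 292 and 319 reads given above was 69.8% miR-22-3p in control muscle and 65.8% in mimic muscle. The Ckm peak at chr7:19421272-19421359, near the 3′ end of the gene, held 95.6 reads in control muscle and 113 in mimic muscle, with shares of 48.0% and 51.9%. The Ttn peak at chr2:76767529-76767584 held 67.2 and 114 reads, with shares of 83.5% and 79.4%. The Gnas peak at chr2:174345389-174345506 held 99.1 and 67.3 reads, with shares of 58.2% and 50.2%. The order of these peaks by reads was thus not the order by share.

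In 36 shared peaks of at least 3 reads miR-22-3p held over 80% of the reads in both libraries, a limit chosen after the values were seen. No counts of such peaks, or of shared led peaks, are given here for other miRNAs as a background. Beside Rab1a, with 86.0% and 83.3%, the 36 included peaks in genes of metabolism and of gene control. Ech1, an enzyme of fatty acid oxidation, had 24.8 reads in control muscle and 30.1 in mimic muscle, which made up 97.2% and 92.7% of its peak. Jund, a subunit of the AP-1 transcription factor, had 18.1 and 31.8 reads and shares of 100% and 97.0%. Ywhaz, a 14-3-3 adaptor protein, had 31.8 and 20.9 reads, with 85.8% and 93.8%. Nampt, the enzyme of NAD salvage, had 9.36 and 10.7 reads, with 92.8% and 91.5%. The histone gene H3f3b had 18.2 and 11.6 reads, the circadian transcription factor Tef had 9.66 and 17.95, and the chromatin regulators Kat6a and Kdm3a had between 3.61 and 6.21 reads in either library.

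The sequence of miR-22-3p gave a measure that is not itself a read count, although the sets of genes compared were chosen by their reads. Transcripts of the genes were searched for GGCAGCT, using the longest protein-coding transcript of each gene, matched by name. Of 300 genes with a peak of at least 3 reads that miR-22-3p led in either library, 284 were protein-coding by the RefSeq table, and 280 had a transcript. The complement was present in 179 of the 280 (63.9%, interval 58.0 to 69.6%). Among all 21615 genes with a transcript the share was 31.9%, and among 7509 genes with a peak of any miRNA it was 40.4%. Among 3420 genes whose peaks of at least 3 reads were led by other miRNAs alone, it was 39.4% (37.7 to 41.0%).

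The share was higher in the sets with deeper miR-22-3p peaks, from 48.1% of 1824 genes with any miR-22-3p peak to 60.7% of 326 genes with a peak of at least 3 reads and to 63.9% where it led. The value was 64.9% for the control library and 63.5% for the mimic library taken separately. For genes led in the same way by miR-24-3p, let-7c-5p, miR-23a-3p and miR-1a-3p, the share with the miR-22-3p complement was 47.5%, 49.4%, 37.9% and 41.4%. The sets of genes overlap in part, and the transcripts differ in length, with a median of 3952 nt for the genes led by miR-22-3p and 3602 nt for those led by others alone. Per kilobase of 3′ untranslated region, the complement occurred 0.187 times in the former and 0.0988 times in the latter. Per kilobase of coding sequence it occurred 0.252 and 0.173 times.

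**Figure D3:**
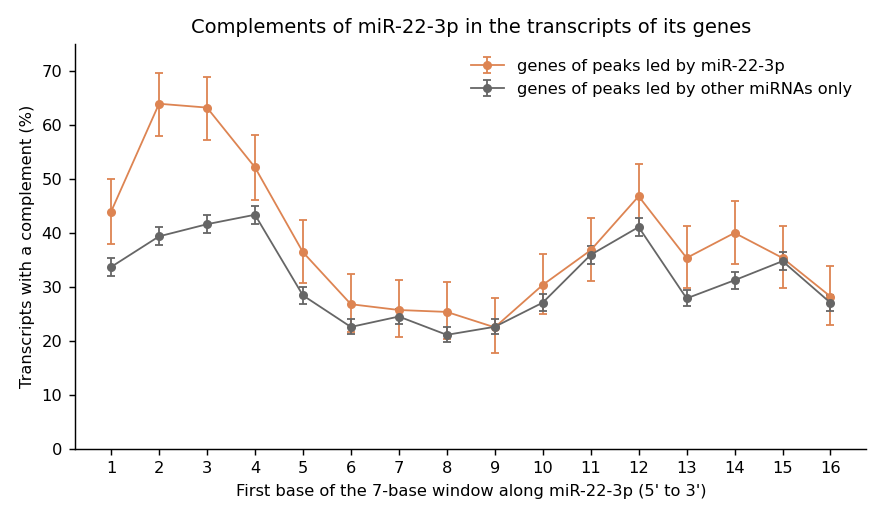
Points give the percent of transcripts that hold a complement to 7 successive bases of miR-22-3p, by the first base of the window from the 5′ end, for 280 genes of peaks led by miR-22-3p (orange) and 3420 genes of peaks led by other miRNAs alone (grey), with 95% Clopper-Pearson intervals. The curves lie farthest apart at windows starting at bases 2 and 3 and meet at the window starting at base 9.

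Along the miRNA the gap between the sets was widest at the seed. In windows of 7 bases, the complement of bases 2 to 8 was present in 63.9% against 39.4% of transcripts, and that of bases 3 to 9 in 63.2% against 41.6%. The complement of bases 1 to 7 was found in 43.9% against 33.7%. Narrower gaps whose intervals also lay apart were found at the windows that start at bases 4, 5, 13 and 14, such as 40.0% against 31.2% at base 14. For bases 9 to 15 the shares were 22.5% and 22.6%. Per kilobase of transcript, the ratio of occurrences was 1.60 for bases 2 to 8, 1.35 for bases 3 to 9 and between 0.839 and 1.15 for the windows that start at base 4 or later. A match is a description of the transcript and not of a bound site.

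The base that follows the complement, across from base 1 of the miRNA, separated the sets further. The complement followed by an A was present in 74 of the 280 transcripts of genes led by miR-22-3p (26.4%, 21.4 to 32.0%) and in 200 of the 3420 of genes led by other miRNAs alone (5.85%, 5.08 to 6.69%). Over all genes with a transcript it was present in 5.22%, and for genes led by let-7c-5p, miR-24-3p, miR-23a-3p and miR-1a-3p in 7.78%, 8.68%, 7.89% and 7.68%. Followed by a C it was found in 15.7% against 12.7%, by a G in 29.6% against 20.9% and by a T in 16.8% against 10.6%. Per kilobase of transcript the ratio was 3.69 with an A, 1.59 with a T, 1.45 with a G and 0.948 with a C. The complement with an A lay in the coding sequence of 47 of the 280 and in the 3′ untranslated region of 27, and in the control and mimic libraries on their own it was present in 28.3% and 27.9%.

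Matches in transcripts of leading genes are shown to let the region and the neighbouring bases be compared, with the complement in capitals. In the 3′ untranslated region, Ywhaz held 1 match at transcript positions 2447 to 2453, H3f3b 1 at 1482 to 1488 and Ccdc50 1 at 2215 to 2221. In the coding sequence, Jund held 1 match at positions 1703 to 1709, Tef 1 at 1044 to 1050 and Dynll2 1 at 485 to 491.
Ywhaz: ttgtctccttattccctcttGGCAGCTaat
H3f3b: aaaaaaaaaaaagtaaacctGGCAGCTata
Ccdc50: accacttactcaatatcaatGGCAGCTatg
Jund: cagttcctctacccgaaggtGGCAGCTagc
Tef: agacgtaagaagaacaatgtGGCAGCTaaa
Dynll2: gtatcgtgggccggaattttGGCAGCTatg

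These 6 were chosen after their values were seen, among matches that an A follows. Other leading genes had no match in the transcript searched, among them Ckm, Atp2a1, Ech1, Ctsc, Flnc and Atp5j2, and Rab1a could not be matched to a transcript by name. Ttn held 7 matches and Neb 3, in the longest transcripts of the set.

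Genes described elsewhere as targets of miR-22 were a list of 25, compiled from general knowledge. Of these, 19 had a peak of some miRNA and 9 had a miR-22-3p peak, 6 of them in both libraries, and 5 had at least 3 miR-22-3p reads in either library. The 9 were 36.0% of the 25 listed genes, which include genes without a peak of any miRNA. On the base of genes with a peak of some miRNA they were 9 of 19. On that base the share over all genes was 23.9%, and it rose with depth as given above, so no excess is read from the list. Purb, a repressor of sarcomeric genes, had 4.97 reads in control muscle and 9.81 in mimic muscle. Rgs2, a regulator of G protein signalling, had 3.42 and 9.69. Tet2, a DNA demethylation enzyme, had 5.86 and 4.27. The deacetylase Sirt1 had 1.59 and 6.94, and the caveolin Cav3, a protein of the muscle membrane, had 3.57 and 1.87.

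The intervals of the ratios of these genes all held the ratio of all chimeric reads, with that of Rgs2 reaching down to 0.858. Of those with fewer reads, Max had 1.89 reads in control muscle, Hdac4 had 0.614 in control muscle and 1.62 in mimic muscle, and Sp1 had 0.604 in control muscle, while 16 genes of the list had no miR-22-3p peak. The list held 0.438% of the miR-22-3p reads in control muscle and 0.598% in mimic muscle, beside 0.160% and 0.139% of all chimeric reads. In the transcripts, Sirt1, Rgs2 and Cav3 each held 1 seed complement in the 3′ untranslated region, each followed by an A, Tet2 held 3 in the coding sequence and 1 in the 3′ untranslated region, and Purb had no match. The matches of Sirt1 at positions 3274 to 3280, of Rgs2 at 1301 to 1307 and of Cav3 at 1021 to 1027 are shown for comparison with those above.
Sirt1: tggcattttccaaaacttgtGGCAGCTaac
Rgs2: gtgccaaaaactgtcttgcgGGCAGCTaaa
Cav3: gagcggagggttccttaagaGGCAGCTagc

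The muscle lists are read against the 23.9% of all genes that had a miR-22-3p peak and against the rise of that share with depth. Among 15 thick-filament genes, 13 (86.7%) had a miR-22-3p peak and 12 had one in both libraries, led by Myh4 and Myh1. This list held 12.7% of the miR-22-3p reads in control muscle and 13.4% in mimic muscle, against 7.37% and 8.51% of all chimeric reads. Myh4 alone had 508 of the 651 miR-22-3p reads of the list in control muscle and 436 of 815 in mimic muscle. Of the list's reads of all miRNAs it had 5140 of 17140 and 4015 of 22056. The higher share thus rests mostly on Myh4 and does not describe the list as a whole. Among 23 genes of the thin filament and Z-disc, 22 had a peak and 17 had one in both, with Ttn and Myot ahead. The list held 10.9% and 12.1% of the miR-22-3p reads against 12.8% and 14.5% of all. Ttn alone had 258 of the 560 miR-22-3p reads of this list in control muscle and 363 of 739 in mimic muscle. Of the list's reads of all miRNAs Ttn had 17514 of 29639 and 23568.5 of 37522. The lower share thus rests mostly on Ttn and does not describe the list as a whole.

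Among 16 genes of calcium handling, 12 had a peak and 7 had one in both libraries. Atp2a1 led, followed by Trdn, the triadin of the calcium release complex, with 2.03 reads in control muscle and 24.6 in mimic muscle. The Trdn reads of the mimic were spread over 9 peaks, the deepest with 8.002 reads. Among 18 genes of glycolysis and glycogen breakdown, 15 had a peak and 11 had one in both, with Pygm ahead and Pkm, pyruvate kinase, at 28.8 and 19.7 reads. The calcium list held 2.18% and 2.20% of the miR-22-3p reads against 1.34% and 1.42% of all, and the glycolysis list 2.52% and 2.15% against 1.93% and 1.72%. Atp2a1 had 85.0 of the 112 miR-22-3p reads of the calcium list in control muscle and 73.8 of 134 in mimic muscle. The share of that list is thus mostly that of 1 gene.

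The extracellular matrix list held a smaller share of the miR-22-3p reads than of all reads. Of its 23 genes 20 (87.0%) had a peak and 10 had one in both libraries, but together they held 0.885% and 0.645% of the miR-22-3p reads against 4.11% and 3.45% of all chimeric reads. Its leading genes were the fibrillar collagens Col3a1, with 13.8 reads in control muscle and 7.34 in mimic muscle, and Col1a2, with 10.4 and 7.55. Of 23 genes of growth and atrophy signalling 6 (26.1%) had a peak, near the share of all genes, led by Bmpr1a, a BMP receptor, with 5.602 and 17.6 reads, and Igf2 with 2.35 and 5.36. Of 18 transcription and chromatin regulators 6 (33.3%) had a peak, led by Mef2c, a muscle transcription factor, with 9.68 and 4.89 reads, and Chd4 with 2.72 and 2.97.

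Markers of cell types were read from the same reads. In whole muscle, fewer cells of a type and less RNA per cell cannot be told apart. All 10 skeletal muscle markers had miR-22-3p peaks in both libraries, with 1053 reads in control muscle and 1354 in mimic muscle. Their ratio was 1.29 (1.19 to 1.40), and that of the reads of all miRNAs on these 10 markers was 1.33. The 5 fibroblast markers had peaks in the control and 3 of them in the mimic, with 37.6 and 21.0 reads in all. Dcn and Pdgfra were at 0 in the mimic, but had only 1.71 and 2.56 reads in control muscle. The intervals of their ratios reached up to 5.32 and 2.42. The chimeric reads of all miRNAs on these 5 markers were 4181 and 4118, a ratio of 0.985, while that of the miR-22-3p reads was 0.557 (0.308 to 0.966). For the larger extracellular matrix list, which shares the collagens and Dcn, the miR-22-3p ratio was 0.865 (0.550 to 1.36), beside 0.938 for all miRNAs. The lists of endothelial, immune, adipocyte, Schwann cell and satellite cell markers had 0 miR-22-3p reads in both libraries, which allows up to 3 reads each as a one-sided limit, and they held few chimeric reads of any miRNA, the most being 44.4 for the immune markers in the mimic. Of 3 smooth muscle markers 2 had a peak, with 1.32 and 3.69 reads.

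The share of peaks near the 3′ end of genes was lower for miR-22-3p than for all other miRNAs. Of 2011 control peaks on nuclear genes of known strand, without Rn18s-rs5, 14.8% (13.3 to 16.4%) lay within 1000 nt of the end of the gene span, and of 2295 mimic peaks 14.9% (13.4 to 16.4%). All other miRNAs were at 19.4% (19.2 to 19.7%) and 19.04% (18.8 to 19.3%), and miR-24-3p and miR-23a-3p were between 19.1% and 19.9%. let-7c-5p was at 17.8% (16.2 to 19.5%) and 17.0% (15.5 to 18.6%). With at least 3 reads the miR-22-3p values were 14.4% and 14.3% against 22.9% and 22.6%. The intervals of miR-22-3p and all other miRNAs lay apart in both libraries, and those of miR-22-3p and let-7c-5p overlapped. The distance is that to the end of the annotated span, since exons were not used here.

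Of the 2062 control peaks, 872 (42.3%, 40.1 to 44.5%) were overlapped by a miR-22-3p peak of the mimic on the same strand by at least 1 nt, and of the 2350 mimic peaks 860 (36.6%, 34.6 to 38.6%) by one of the control. For all other miRNAs the control value was 35.4% (35.0 to 35.7%), and 6 of the 147 other miRNAs with at least 50 peaks had a higher share than miR-22-3p, with a median of 24.5%. The miRNAs with a like number of peaks were near it. They had 40.2% (38.1 to 42.3%, let-7c-5p), 38.6% (36.6 to 40.7%, miR-24-3p) and 40.9% (38.6 to 43.1%, miR-23a-3p). Their intervals overlapped that of miR-22-3p. The overlap depended on depth. It was 30.7% for control peaks under 1 read, 44.0% from 1 to under 3 reads, 79.8% from 3 to under 10 reads and 96.7% (58 of 60) at 10 or more reads. In the mimic, 78 of the 80 peaks with at least 10 reads were overlapped by one of the control. No shares by depth are given here for other miRNAs, so these values are not read as particular to miR-22-3p. The 4 deep peaks without a partner included the Myh4 peak of 46.3 reads and the Myh1 peak of 86.5 reads described above. The others were a Myh1 peak of 10.8 reads in the mimic and a Ttn peak of 32.3 reads at chr2:76708501-76708570 in the control. None of the 4 places had a peak of any miRNA in the other library.

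**Figure D4:**
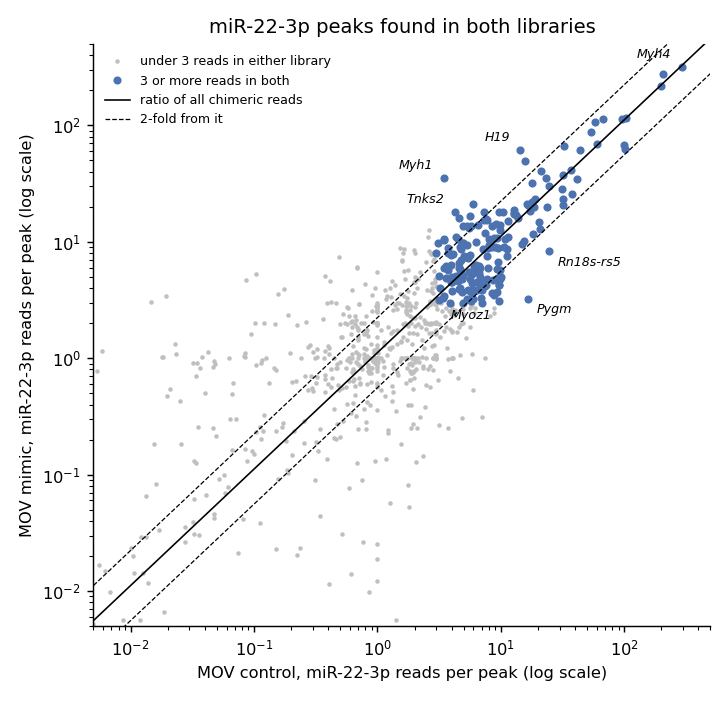
Each point is a miR-22-3p peak found in both libraries, with its reads in the MOV control on the x axis and in the MOV mimic on the y axis, both on a log scale, and the lines mark the ratio of all chimeric reads and 2-fold from it. Of the 186 peaks with 3 or more reads in both (blue), 19 lie on or above the upper dashed line and 18 on or below the lower one, and the named genes are the 3 largest rises, the 3 largest falls and the deepest peak.

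Pairs of peaks that were each other's best overlap numbered 814. Across these pairs the log2 ratio, mimic over control, had a median of 0.21 (order-statistic interval 0.10 to 0.30), beside 0.04 (0.03 to 0.06) for the shared peaks of all other miRNAs and 0.28 (0.22 to 0.33) for those of miR-1a-3p. Among the 186 pairs with at least 3 reads in each library the median was 0.18 (0.03 to 0.29), against 0.11 (0.10 to 0.13) for other miRNAs. Single peaks varied far more than the median, with an SD of 0.81 on the log2 scale at this depth. After division by library totals, the median of these 186 pairs was 0.02.

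Of these 186 peaks, 19 (10.2%) were at least 2-fold higher in the mimic after division by library totals, where 6.77% of 6308 shared peaks of all miRNAs were. At least 2-fold lower were 18 (9.68%), where 8.61% of all were. With abutting peaks of a miRNA joined, the share of higher peaks was 7.81%, nearer to the 6.24% of all miRNAs. The widest rises were in Myh1, Tnks2 and H19. Tnks2, a tankyrase that marks proteins for degradation, had 4.24 reads in control muscle and 17.99 in mimic muscle. H19 went from 14.4 to 60.9 reads in 1 peak, but the control had a second, abutting peak with 18.7 reads, and with such peaks joined the values were 33.4 and 61.6. The widest falls were in Pygm, from 16.6 to 3.25 reads, in the Z-disc gene Myoz1, from 9.65 to 3.10, and in a peak of Rn18s-rs5, from 24.4 to 8.30.

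Summed over genes, 66 genes had at least 20 miR-22-3p reads in both libraries together. For 10 of them (15.2%) the interval of the ratio lay wholly above the ratio of all chimeric reads, where 8.94% of 2304 pairs of a miRNA and a gene did, and for 2 (3.03%) wholly below it, where 9.11% did. The 10 were Myh1, Myh2, Ttn, Neb, Rab1a, H19, Atp5j2, Trdn, Tnks2 and Bmpr1a, and the 2 were Myh4 and Gnas. Atp5j2, a subunit of the mitochondrial ATP synthase, had 16.8 reads in control muscle and 50.9 in mimic muscle. The ratio was 3.02 (1.70 to 5.54), where the reads of all miRNAs, miR-22-3p included, had 1.64. Of those Atp5j2 reads miR-22-3p held 37.8% in control muscle and 69.6% in mimic muscle. The value of 1.64 is therefore not a ratio of the other miRNAs. The ratio for Ttn was 1.41 (1.20 to 1.66), and that of its chimeric reads of all miRNAs was 1.35. For Gnas it was 0.709 (0.518 to 0.966), where the reads of all miRNAs had a ratio of 1.04. For Rab1a the ratios were 1.62 (1.15 to 2.36) and 1.52, and for Neb 1.87 (1.23 to 2.93) and 1.19. On Rab1a miR-22-3p held 69.1% and 73.6% of the reads of all miRNAs, so the 1.52 is also largely its own.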

How the data were processed

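The deposited values were estimated counts of chimeric reads per miRNA and peak, not scaled to depth by the authors, and mostly fractions: 11.6% of the miR-22-3p values were whole in control muscle and 12.8% in mimic muscle (within 1e-06). The submitters' processing notes name UMI-tools 1.1.1, cutadapt 3.2, STAR 2.7.7a, Bowtie 1.2.3 and HOMER 4.11 and the mm10 build, and the methods also name CLIPper and amplification with a miR-1 primer, so shares describe these files and not miRNA abundance. Depth was the sum of chimeric reads, 232408 and 259207.

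Genes were assigned by largest same-strand overlap with 49980 RefSeq spans of GRCm38.p6. Of the miR-22-3p peaks 99.6% and 99.7% overlapped such a span on either strand, against 54.7% and 58.0% for the mm9 genes. No gene was found for 9 and 11 peaks, and 38 and 40 were given a gene of unknown strand. Strand came from RefSeq tables and, by name, from GENCODE.

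Intervals were Clopper-Pearson, exact Poisson, exact conditional binomial (ratios) or order-statistic (medians), on rounded reads, computed with scipy 1.17.1 and pandas 2.3.3 in Python 3.11.15 after tests on simulated data. Named genes were the 12 with most reads, list genes with at least 3 reads in the list of described targets or the leading 2 of each other list, the 3 widest rises and falls and the 6 deepest led peaks. Others were named after their values were seen, and the transcript seed searches, in place of the planned search in peaks, were added then. The members and lists were chosen with earlier results of these data known. Some items are not reported here.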

Additional observations from a re-analysis of the deposited data

How the results depend on the processing

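The libraries have no replicates, so no alternative leaves one out, and no paired analysis was possible because there is 1 library to a group. Peak sequences in GRCm38 were not used here, so the planned seed matches in peaks, with their alternatives, were not run. Of the values that were recomputed, 24 settings of the single-gene ratios gave 1 move beyond the counting interval, that of Myh1 to 20.6 at a minimum of 3 reads, and no change of direction. The miR-22-3p share of peaks became 2.88% in control muscle and 2.89% in mimic muscle at a minimum of 3 reads, and 2.46% in the mimic at a minimum of 1 read. Division by library totals brought the ratio of reads to 1.06 and the median log2 ratio at shared peaks to 0.056. The overlap of control peaks was 34.1% with 50% reciprocal overlap, 36.6% from the side of the mimic, 67.2% with any miRNA accepted and 63.1% with at least 3 reads in both libraries. Genes in both libraries fell to 157 at 3 reads and 181 with at least 2 peaks. The share of the reads of its peaks was 7.33% and 7.75% in peaks of at least 3 reads, and 6.81% and 7.06% without the mitochondrial chromosome. The share of transcripts with a seed complement was 93.2% with 6 bases, 26.4% with 7 bases followed by A, 28.2% in the 3′ untranslated region alone, 46.8% in the coding sequence alone and 48.1% for all miR-22-3p genes. Joining abutting peaks, added after seeing the data, left 15 of 192 peaks (7.81%) 2-fold higher and 18 (9.38%) lower. Of 6311 joined peaks of all miRNAs, 6.24% were higher and 8.52% lower. Without Myh1, Myh2 and Myh4, also added, the ratio of reads was 1.18.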

Other observations

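The other arm of the hairpin, miR-22-5p, had 152 peaks with 136 reads in control muscle and 263 peaks with 223 reads in mimic muscle. The ratio of its reads was 1.64 (1.32 to 2.04), above that of miR-22-3p, and miR-22-3p had 37.7 reads for each read of miR-22-5p in control muscle and 27.3 in mimic muscle. At the Mir22 hairpin itself, chr11:75463716-75463810, miR-22-3p had 1.56 reads in control muscle and 1.88 in mimic muscle, and the host gene Mir22hg outside it had 0.545 reads in control muscle and 0 in mimic muscle.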
